A study of Mus musculus with 64 samples.

Results

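Corticosterone (CORT), the main glucocorticoid hormone of the mouse, was released for 5 days from a subcutaneous pellet in WT mice, and the hippocampal transcriptome was compared with that of WT mice with a vehicle pellet. The comparison rests on 9 of the 64 libraries of the series, 5 from CORT mice (H3, H5, H12, H15 and H20) and 4 from vehicle mice (H1, H4, H6 and H17). A further vehicle library, H13, was left out, as in the study. The pellets held 20 mg CORT with cholesterol or cholesterol alone, so both groups shared the surgery and the cholesterol. All mice were adult males of 10 to 18 weeks and F1 hybrids of a C57BL/6J father and a 129sv mother with a Ube3a deletion that WT offspring do not carry. Total RNA of the left hippocampus of each mouse gave 1 stranded mRNA library. For comparison, 9 libraries came from AS mice, littermates with the Ube3a deletion on the maternal allele, with the same pellets (5 CORT and 4 vehicle, without the library H9, which the study left out). Another 12 came from WT mice of a second cohort, 6 with CORT and 6 with vehicle, taken 3 h after an injection of 3 mg/kg CORT or vehicle.

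Glucocorticoids cross the cell membrane and bind the mineralocorticoid receptor (MR, Nr3c2), which is largely occupied at resting hormone levels, and the glucocorticoid receptor (GR, Nr3c1), which fills as the hormone rises. Both are abundant in the hippocampus, a brain region known for its part in memory and in the feedback on the stress axis. The loaded receptor enters the nucleus and either binds a palindrome of short DNA half-sites or acts through other transcription factors. Among the genes it induces is Fkbp5, whose product lowers the hormone affinity of GR.

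Reads on genes numbered 19112929 in H6 and between 21589964 and 21765362 in the other 8 libraries, so that 3 counts, the floor for counting error only, stood at 0.138 to 0.157 CPM (counts scaled to library size after TMM normalization). Markers of hippocampal fields summed to 1057 to 1434 CPM in vehicle and 1117 to 1579 CPM in CORT libraries. The 12 tested markers of choroid plexus, the epithelium that makes cerebrospinal fluid and lies against the hippocampus, summed to 268, 208, 1831 and 4261 CPM in the vehicle libraries H1, H4, H6 and H17. In the CORT libraries they summed to 119 to 311 CPM, so H6 and H17 stood apart from the other 7. Haemoglobin and other blood markers summed to 40.9 to 58.8 CPM in vehicle and 75.3 to 186 CPM in CORT libraries, without overlap. Myelin markers spanned 2629 to 7249 CPM and 2788 to 7402 CPM, and overlapped. The left-out library H13 had 18340 CPM of choroid plexus markers, 3331 CPM of striatum markers against 66.0 to 248 CPM in the other 9, and 592 CPM of hippocampal markers. For choroid plexus, values without H6 and H17 and from a fit with the choroid plexus level of each library as a covariate are given below. The part of the other tissues in the results was not tested.

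**Figure D1:**
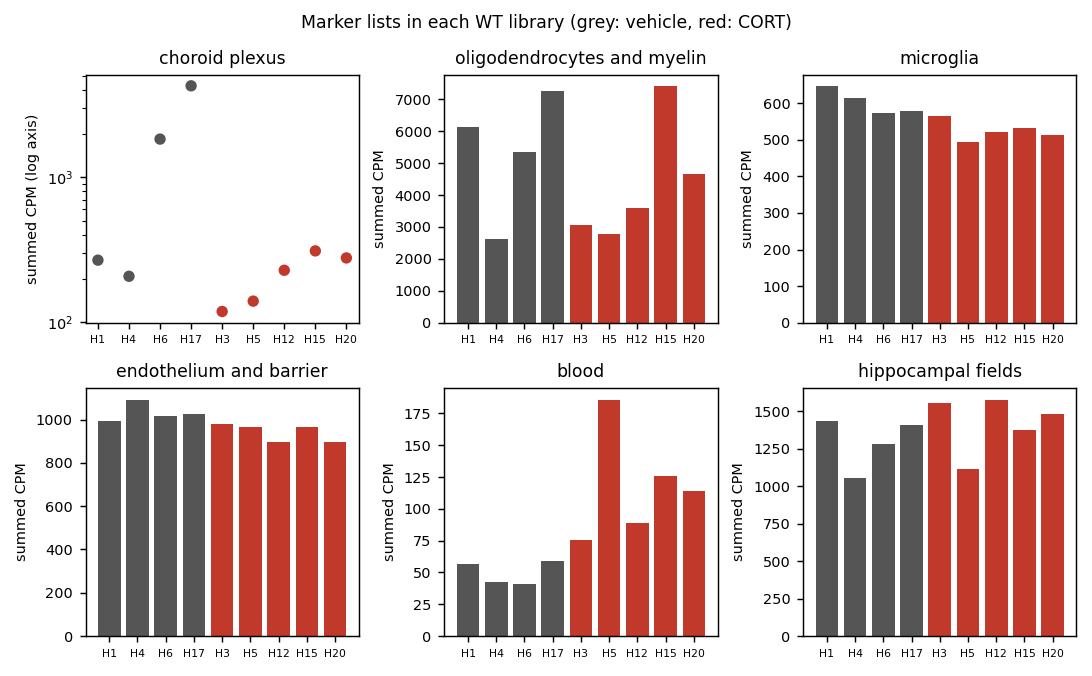
Summed CPM of marker lists in each WT library, with vehicle libraries in grey and CORT libraries in red. The choroid plexus panel has a log axis, on which H6 (1831) and H17 (4261) lie above all others, and the microglia, endothelium and blood panels show groups that do not overlap.

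Continuous CORT altered 436 of 14949 genes tested (2.92%) at an adjusted p under 0.05 (edgeR quasi-likelihood test, Benjamini-Hochberg adjustment), 120 raised (0.803%) and 316 lowered (2.11%). The median log2 fold change over all genes tested was 0.0034. Raised genes had a median log2 fold change of 0.45 and 22 of them exceeded 1, while lowered genes had a median of -0.53 and 47 of them fell by more than 1. In all, 391 genes (2.62%) had every CORT library above every vehicle library and 530 genes (3.55%) had every CORT library below. Among the altered genes these were 102 of the 120 raised and 260 of the 316 lowered genes. The counts leaned on a few mice: without H6 there were 75 raised genes, without H17 67 raised and 188 lowered, without H12 78 and 199, and without H20 72 and 180. Without H6 and H17 together, a comparison chosen after the data were seen, 43 were raised and 139 lowered, of which 35 and 127 were also called with all 9 mice. With the choroid plexus level as a covariate, 101 were raised and 267 lowered. With H13 and the AS library H9 included, 34 were raised and 169 lowered. A fit of the 9 WT libraries alone altered 274 genes (83 raised, 191 lowered). More genes passed with DESeq2 (608, 196 raised and 412 lowered) and with limma-voom (600, 206 raised and 394 lowered).

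**Figure D2:**
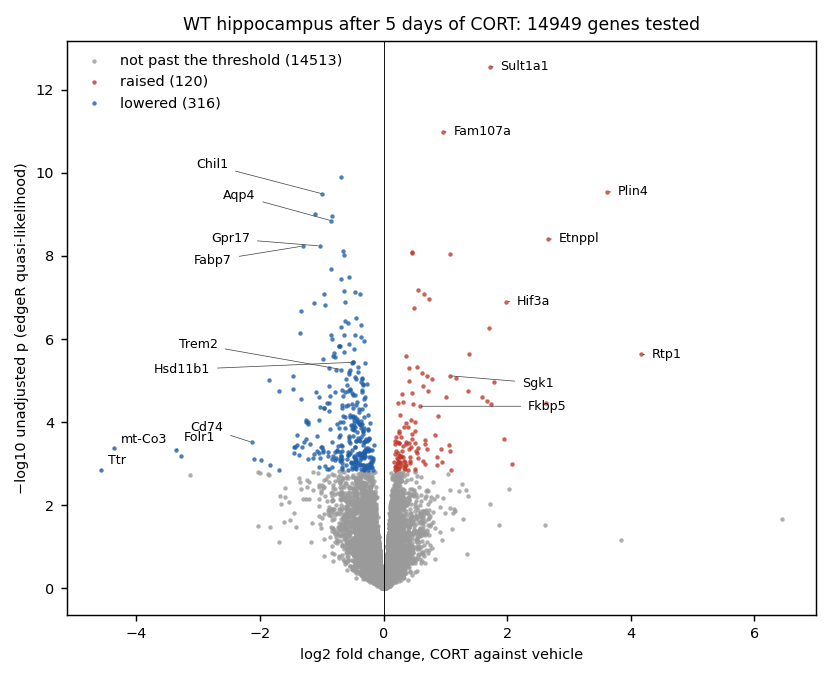
Log2 fold change of CORT against vehicle (x axis) and −log10 of the unadjusted p (y axis) for each of the 14949 genes tested, in red where raised, in blue where lowered and in grey where the threshold was not passed. Sult1a1 and Fam107a lie highest, and Ttr and mt-Co3 lie farthest to the left, Ttr close to the threshold.

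The receptors themselves did not pass the threshold with edgeR. Nr3c1 stood at 95.4, 80.1, 101 and 103 CPM in vehicle mice and at 79.4, 63.6, 73.0, 81.3 and 74.0 CPM in CORT mice, a difference of -0.36 (log2, standard error (SE) 0.109, adjusted p = 0.0953). The groups overlapped through H4 and H15, and the difference passed without H4 (but in no other of the 9 fits without 1 mouse), with DESeq2 (adjusted p = 0.0422) and with limma-voom (adjusted p = 0.0393). Nr3c2 averaged 221 ± 16.6 CPM (SD, n = 4) with vehicle and 189 ± 21.6 CPM (SD, n = 5) with CORT (log2 fold change -0.22, adjusted p = 0.141). With H9 and H13 included, its log2 fold change was 0.029. Of the 21 tested genes of receptors, chaperones, coregulators and hormone handling, 1 was raised and 1 lowered, against 0.803% and 2.11% of all genes, and the median log2 fold change was 0.037. Hsp90aa1, the chaperone that holds GR ready for hormone, had a log2 fold change of 0.05, and Fkbp4, which promotes receptor transport, had 0.12, and neither passed. Hsd11b2, which inactivates the hormone, was measured at 0 to 2 counts per library and was not tested.

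The raised gene of this group was Fkbp5 (chromosome 17, 28399094 to 28517527 of GRCm38, minus strand). It was at 72.8, 87.5, 66.3 and 58.7 CPM with vehicle and at 106, 106, 113, 97.0 and 112 CPM with CORT, a rise of 0.58 (log2, SE 0.109, adjusted p = 0.00461) without overlap. It passed in each of the 9 fits without 1 mouse, but not without H6 and H17 together, where the change was 0.42 (adjusted p = 0.126), nor with H9 and H13 included. The lowered gene was Hsd11b1 (chromosome 1, 193221634 to 193264075, minus strand), whose enzyme regenerates active hormone from its inert 11-keto form inside cells. It was at 36.9, 34.6, 31.4 and 35.8 CPM with vehicle and at 27.8, 21.6, 27.6, 24.2 and 21.2 CPM with CORT, and fell by 0.50 (log2, SE 0.0775, adjusted p = 0.000902). Every CORT mouse was below every vehicle mouse. This call was lost with H9 and H13 included (-0.27, adjusted p = 0.583) and kept without H6 and H17.

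Of 24 tested genes known to respond to glucocorticoids, Fkbp5 among them, 11 were raised and 0 lowered, against 0.803% raised among all genes, and all 24 had a log2 fold change above 0, with a median of 0.44. The list was chosen for genes known to rise with the hormone, so its direction is not independent of that choice. This and all other gene lists were chosen with earlier results of these data known, so their counts are not independent of the data. Sgk1, a kinase that controls ion channels and transporters, was at 66.4, 60.2, 55.2 and 69.8 CPM with vehicle and at 104, 108, 107, 195 and 146 CPM with CORT. It rose by 1.07 (log2, SE 0.175, adjusted p = 0.00153), with H15 the highest mouse. Fam107a, an actin-binding stress-responsive gene, was at 222, 237, 230 and 220 CPM with vehicle and at 456, 441, 423, 466 and 418 CPM with CORT. Its rise of 0.96 (SE 0.0647, adjusted p = 7.71e-08) had little spread within either group. Cdkn1a, an inhibitor of the cell cycle, was at 4.23 to 6.50 CPM with vehicle and 10.7 to 16.7 CPM with CORT (log2 fold change 1.38, adjusted p = 0.000648). Ddit4, which restrains mTOR signalling, rose by 0.53 (adjusted p = 0.0011).

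Rises were also seen for Klf15 (0.51) and Klf9 (0.24), Krüppel-like transcription factors, for Arrdc2 (0.83), an arrestin domain gene, and for Glul (0.28), the glutamine synthetase of astrocytes. Mt1, a metal-binding metallothionein, was at 258, 263, 189 and 218 CPM with vehicle and at 424, 319, 314, 301 and 293 CPM with CORT (log2 fold change 0.51, adjusted p = 0.0199). Tsc22d3, which encodes the anti-inflammatory protein GILZ, averaged 43.9 ± 7.52 CPM (SD, n = 4) with vehicle and 63.6 ± 6.77 CPM (SD, n = 5) with CORT (0.53, adjusted p = 0.0279). Its call held in 4 and that of Klf9 in 2 of the 9 fits without 1 mouse, and Mt1 lost it without H6 or without H17. Fam107a, Cdkn1a, Ddit4 and Sgk1 were the 4 members that still passed without H6 and H17 together, which leaves 2 vehicle mice, and 7 of the 24 were raised with the choroid plexus covariate. Without H6 and H17, the log2 fold changes of the other 7 raised members were 0.90 for Arrdc2, 0.42 for Fkbp5, 0.40 for Klf15, 0.37 for Tsc22d3, 0.34 for Mt1, 0.28 for Glul and 0.17 for Klf9. With H9 and H13 included 6 were raised, and Cdkn1a (0.96, adjusted p = 0.0983) and Arrdc2 (0.68, adjusted p = 0.107) were among those that did not pass. Per1, a clock gene with a well-known receptor site, did not pass (log2 fold change 0.17, adjusted p = 0.612), nor did the zinc-finger gene Zbtb16 (0.46, adjusted p = 0.0934) or Nfkbia, the inhibitor of NF-kB (0.44, adjusted p = 0.0657), although the groups did not overlap for the latter pair, which passed with DESeq2. Lcn2 did not reach the count filter, at 0 to 5 counts per library.

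Since GR binds a palindrome, the RefSeq promoter windows of GRCm38.p6 (250 bases before to 50 after each transcript start) were searched for GNACANNNTGTNC, which reads the same on both strands. It was found in 156 of 32851 windows (0.475%). Windows were at hand for 100 of the 120 raised genes, and 6 of these genes (6%) held the motif, namely Fam107a, Sgk1, Serpina3n, Mt1, Map3k6 and Folh1. Of 11155 genes tested with a window, 45 (0.403%) held it. Among the 224 lowered genes with a window, 0 held it. Windows covered 70.9% of the lowered genes and 74.6% of all genes tested, under the 80% needed for a check of a gene set, so nothing is read from these counts. The motif and its search were chosen after the values were seen, a match is not a binding site, and no test was made. The 6 matches are shown with 50 bases on either side, on the strand of the gene, 5′ to 3′, with the motif in capitals.
Fam107a, chr14:8309835-8309947, minus strand, centred 112 bases before the start: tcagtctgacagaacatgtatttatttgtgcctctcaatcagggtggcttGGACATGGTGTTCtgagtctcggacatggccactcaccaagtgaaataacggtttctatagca
Sgk1, chr10:21993652-21993764, plus strand, centred 182 bases before the start: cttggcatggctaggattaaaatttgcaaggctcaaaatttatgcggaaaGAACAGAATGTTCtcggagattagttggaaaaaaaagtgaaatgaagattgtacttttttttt
Mt1, chr8:94178945-94179057, plus strand, centred 88 bases before the start: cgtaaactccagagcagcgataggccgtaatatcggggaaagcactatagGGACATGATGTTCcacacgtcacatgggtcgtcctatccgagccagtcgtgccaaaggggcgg
Serpina3n, chr12:104406580-104406692, plus strand, centred 72 bases before the start: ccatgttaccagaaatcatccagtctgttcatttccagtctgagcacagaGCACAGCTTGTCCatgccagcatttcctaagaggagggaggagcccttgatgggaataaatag
Map3k6, chr4:133240587-133240699, plus strand, centred 175 bases before the start: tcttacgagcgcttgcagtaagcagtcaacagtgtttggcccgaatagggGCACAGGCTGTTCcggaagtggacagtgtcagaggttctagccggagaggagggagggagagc
Folh1, chr7:86776000-86776112, minus strand, centred 192 bases before the start: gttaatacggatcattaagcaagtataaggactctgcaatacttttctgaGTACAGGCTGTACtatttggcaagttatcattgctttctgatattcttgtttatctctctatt

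Of these, Serpina3n, a secreted serine protease inhibitor of astrocytes, averaged 166 ± 12.8 CPM (SD, n = 4) with vehicle and 209 ± 10.7 CPM (SD, n = 5) with CORT (log2 fold change 0.34, adjusted p = 0.0107). Map3k6, a stress-activated kinase, rose from 1.78 ± 0.681 to 3.73 ± 0.354 CPM (1.06, adjusted p = 0.0212). Folh1, a glutamate-releasing peptidase, rose from 10.6 ± 1.66 to 15.1 ± 1.56 CPM (0.51, adjusted p = 0.0472). All 3 had every CORT mouse above every vehicle mouse. The calls were nevertheless uneven: without 1 mouse, Serpina3n passed in 8 of 9 fits (lost without H17), Map3k6 in 5 (lost without H1, H6, H17 or H20) and Folh1 in 1.

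Plin4 (chromosome 17, 56100591 to 56109803, minus strand), which coats lipid droplets, was at 2.30, 2.99, 2.11 and 3.11 CPM with vehicle and at 26.7, 20.2, 29.7, 52.2 and 33.6 CPM with CORT. Plin4 thus rose by 3.62 (log2, SE 0.298, adjusted p = 9.59e-07), or 12.3-fold, with H15 the highest mouse. Sult1a1 (chromosome 7, 126672865 to 126676432, minus strand), which adds sulfate to phenols and catecholamines, had the smallest p of all genes. It was at 5.38, 5.93, 5.53 and 6.05 CPM with vehicle and at 20.8, 18.9, 18.6, 17.5 and 18.2 CPM with CORT (log2 fold change 1.71, SE 0.0945, adjusted p = 4.20e-09). Hif3a, a member of the hypoxia-inducible factor family, was at 5.15, 7.38, 1.95 and 3.70 CPM with vehicle and at 16.6, 15.8, 19.5, 21.2 and 17.8 CPM with CORT (1.98, SE 0.241, adjusted p = 6.89e-05). It was the 1 raised gene of 14 tested on the hypoxia list, against 0.803% of all genes. The other 13 did not pass, and the median of the list was 0.0078.

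Rtp1, which helps odorant receptors reach the cell surface, was at 0.276, 0.498, 0.211 and 0.226 CPM with vehicle and at 4.49, 13.3, 2.67, 3.33 and 4.08 CPM with CORT (log2 fold change 4.17, SE 0.621, adjusted p = 0.000648). H5 lay far above the other CORT mice, yet all 5 exceeded the vehicle mice, and the call held without H5. Tmem52, a transmembrane protein gene, rose from 0.594 ± 0.187 to 1.96 ± 0.280 CPM (1.71, adjusted p = 0.000207), without overlap. Card14, a scaffold of NF-kB signalling, had a log2 fold change of 2.08 with overlap (adjusted p = 0.0403) and kept its call in 3 of the 9 fits without 1 mouse. Further rises were found for Gpd1 (0.45), which links glycolysis to glycerol lipids, for Acot11 (0.66), an acyl-CoA thioesterase, for Cyp4f15 (1.07), a fatty acid hydroxylase, and for Smox (0.49), which oxidizes spermine. Their adjusted p lay between 8.78e-06 and 8.57e-05, without overlap in any of the 4, and Gpd1 did not pass with H9 and H13 included (0.57, adjusted p = 0.106). From the list for lipid droplets and fatty acid use, 2 of 20 rose and 1 fell, against 0.803% and 2.11% of all genes. The raised genes were Plin4 and the triglyceride lipase gene Pnpla2 (0.47, adjusted p = 0.0176, lost without H6 or H17). Cpt1a, which brings fatty acids into mitochondria, fell by 0.40 (adjusted p = 0.0182, lost without H17).

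**Figure D3:**
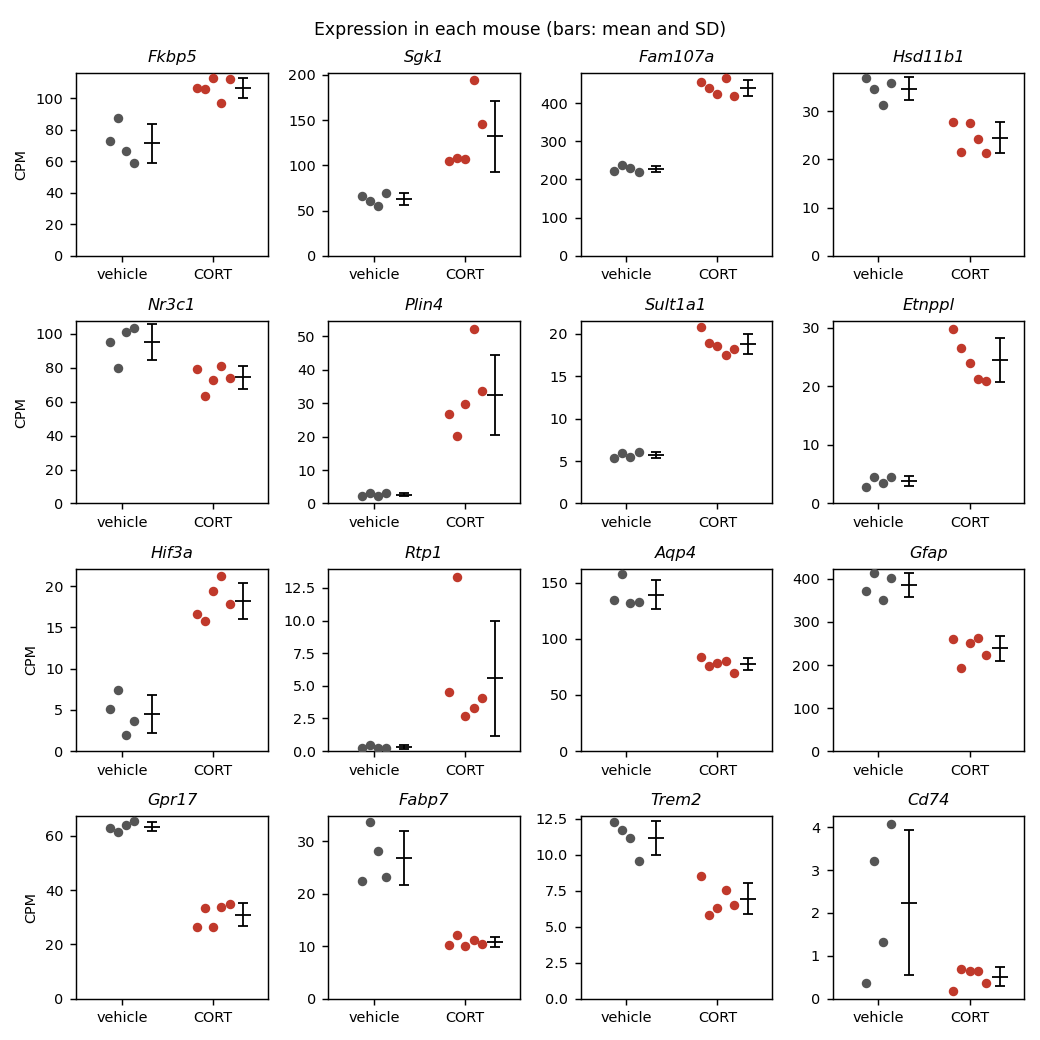
CPM of 16 genes in each of the 4 vehicle mice (grey) and the 5 CORT mice (red), with the mean and SD as black bars and each axis starting at 0. Fam107a, Sult1a1, Etnppl, Aqp4 and Gpr17 show groups far apart with little spread, Nr3c1 and Cd74 show groups that overlap, and Rtp1 has 1 high CORT mouse (H5, 13.3 CPM).

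Astrocyte genes changed in both directions. Of 20 tested markers of these supporting cells, 4 were raised and 7 lowered, against 0.803% and 2.11% of all genes, with a median log2 fold change of -0.17. Etnppl (chromosome 3, 130617448 to 130637521, plus strand), which breaks down phosphoethanolamine, was at 2.85, 4.57, 3.43 and 4.56 CPM with vehicle and at 29.8, 26.5, 23.9, 21.2 and 20.8 CPM with CORT. It rose by 2.66 (log2, SE 0.258, adjusted p = 6.48e-06), or 6.32-fold, but did not pass with H9 and H13 included (2.11, adjusted p = 0.147). Htra1, a secreted serine protease, rose from 145 ± 3.56 to 201 ± 8.90 CPM (0.47, adjusted p = 8.78e-06). Aldoc, the glycolytic aldolase of astrocytes, was at 725, 788, 663 and 645 CPM with vehicle and at 1132, 1086, 970, 1013 and 973 CPM with CORT (0.55, adjusted p = 4.88e-05). Gjb6, the gap junction protein connexin 30, rose by 0.73 (adjusted p = 6.23e-05). None of these 4 overlapped between groups.

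The lowered astrocyte genes included the water channel gene Aqp4, at 135, 158, 132 and 133 CPM with vehicle and at 83.8, 76.1, 78.7, 80.0 and 69.2 CPM with CORT. It fell by 0.85 (log2, SE 0.0769, adjusted p = 2.65e-06), with every CORT mouse far below every vehicle mouse. Fabp7, the fatty acid binding protein of radial glia and astrocytes, was at 22.5, 33.6, 28.1 and 23.1 CPM with vehicle and at 10.2, 12.1, 10.0, 11.3 and 10.4 CPM with CORT (-1.31, SE 0.13, adjusted p = 7.87e-06). Gfap, the intermediate filament of astrocytes, named here after its values were seen, fell from 385 ± 27.8 to 239 ± 29.4 CPM (-0.69, adjusted p = 0.000207). The summed level of the 20 markers was 5149 to 6006 CPM with vehicle and 5020 to 5546 CPM with CORT and overlapped. In each fit without 1 mouse, 4 markers were raised and 6 to 8 lowered.

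The 15 lowered genes with the smallest p also included the 11 genes that follow. Chil1, a secreted chitinase-like glycoprotein, was at 14.6, 14.9, 15.3 and 15.6 CPM with vehicle and at 7.97, 7.74, 7.10, 7.91 and 7.23 CPM with CORT (-0.99, SE 0.0822, adjusted p = 9.59e-07). Tst, a mitochondrial sulfur transferase, fell from 28.6 ± 1.16 to 17.8 ± 0.883 CPM (-0.69, adjusted p = 6.17e-07). S100a6, a calcium-binding protein, fell from 11.5 ± 1.33 to 5.33 ± 0.678 CPM (-1.11), and Vcam1, an adhesion molecule for leukocytes, from 30.1 ± 2.83 to 16.8 ± 1.45 CPM (-0.84), both with an adjusted p of 2.30e-06. The glutamine transporter gene Slc38a3 (-0.66), the dicarboxylate transporter gene Slc13a3 (-0.96), the phospholipid transfer protein gene Pltp (-0.86), the endothelin receptor gene Ednrb (-0.69), the growth factor gene Ptn (-0.64), the PBX-interacting protein gene Pbxip1 (-0.55) and the phospholipase gene Abhd3 (-0.47) fell as well. All 11 genes had every CORT mouse below every vehicle mouse, against 3.55% of all genes. They passed in each of the 9 fits without 1 mouse, without H6 and H17 together, and with DESeq2. They were picked for the smallest p in these same mice, so neither result is independent of that choice.

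Of 10 tested genes of oligodendrocyte precursors, 4 were lowered and 0 raised, against 2.11% lowered among all genes, with a median log2 fold change of -0.37. Gpr17, a receptor of precursors that are about to mature, was at 63.1, 61.5, 63.9 and 65.3 CPM with vehicle and at 26.4, 33.5, 26.3, 33.7 and 34.9 CPM with CORT. It fell by 1.04 (log2, SE 0.103, adjusted p = 7.87e-06), to less than every vehicle value in each CORT mouse. Lhfpl3, a membrane protein gene, fell by 0.44 (adjusted p = 0.0187), Bmp4, a signal that holds back differentiation, by 1.40 (adjusted p = 0.0215), and C1ql1, a secreted C1q-like protein, by 0.45 (adjusted p = 0.0354). Gpr17 passed in each of the 9 fits without 1 mouse. Lhfpl3 lost its call without H4 or H20, Bmp4 without H1, H17 or H20, and C1ql1 without H6, H17, H5 or H12. Of 20 genes of oligodendrocytes and myelin, 1 was lowered, Opalin, a membrane glycoprotein of myelinating cells (38.6, 13.5, 28.4 and 45.1 CPM with vehicle against 10.5, 7.60, 11.1, 18.3 and 10.8 CPM with CORT, adjusted p = 0.0227). Its groups overlapped, it was lowest in H4 and highest in H17 among vehicle mice, as the summed myelin markers were, and its call held in 3 of the 9 fits.

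Microglia are the resident immune cells of the brain. Of 18 of their markers tested, 8 were lowered and 0 raised, against 2.11% lowered among all genes, with a median log2 fold change of -0.24. Fcrls, an Fc receptor-like gene, was at 12.4, 12.3, 11.96 and 10.9 CPM with vehicle and at 7.83, 5.13, 6.92, 6.89 and 6.44 CPM with CORT (-0.84, SE 0.118, adjusted p = 0.00034). Trem2, a lipid-sensing receptor, was at 12.3, 11.7, 11.1 and 9.56 CPM with vehicle and at 8.53, 5.83, 6.32, 7.54 and 6.54 CPM with CORT (-0.68, SE 0.109, adjusted p = 0.0012). P2ry12, a purine receptor of resting microglia, fell by 0.55 (adjusted p = 0.00129) and Itgam, an integrin chain, by 0.89 (adjusted p = 0.00217). Neither overlapped between groups. In bulk RNA, fewer cells of a type and less RNA per cell cannot be told apart. The summed level of the markers was 572 to 646 CPM with vehicle and 493 to 564 CPM with CORT. Without 1 mouse, 7 to 9 of the 18 were lowered, and without H6 and H17 together 7 were.

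Of 10 tested genes of MHC and antigen presentation, 5 were lowered and 0 raised, against 2.11% lowered among all genes, with a median log2 fold change of -0.37. Psmb9, a subunit of the immunoproteasome, was at 1.61, 1.77, 1.37 and 1.53 CPM with vehicle and at 0.880, 0.839, 0.830, 0.832 and 0.463 CPM with CORT (-1.03, SE 0.193, adjusted p = 0.00464). The MHC class I genes H2-K1 and H2-D1, whose reads may be shared between near-identical family members, fell by 0.49 (adjusted p = 0.00703) and by 0.29 (adjusted p = 0.0272). Without 1 mouse, H2-K1 passed in 9 of 9 fits and H2-D1 in 3, and neither passed with H9 and H13 included. Cd74, the invariant chain of MHC class II, was at 0.368, 3.22, 1.32 and 4.06 CPM with vehicle and at 0.185, 0.699, 0.646, 0.647 and 0.371 CPM with CORT (-2.13, adjusted p = 0.0193). Its groups overlapped through H1, and its call was lost without H4, without H17 or without H20. The class II genes H2-Aa, H2-Ab1 and H2-Eb1 and their activator Ciita did not reach the count filter. Without 1 mouse, 2 to 5 of the 10 genes were lowered.

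Among 19 interferon-stimulated genes 3 were lowered, against 2.11% of all genes, and the median log2 fold change was -0.40. Without 1 mouse, 1 to 3 of them were lowered. Gbp4, a guanylate-binding protein of cell defence, was at 1.06, 2.13, 1.26 and 1.08 CPM with vehicle and at 0.463, 0.326, 0.138, 0.416 and 0.556 CPM with CORT (-1.85, SE 0.308, adjusted p = 0.0017). Its relative Gbp3 fell by 1.08 (adjusted p = 0.0256) and Ifitm3, which blocks virus entry, by 0.68 (adjusted p = 0.0376). Gbp4 passed in each of the 9 fits without 1 mouse, Gbp3 in 4 and Ifitm3 in 2.

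Of 20 tested genes of endothelium and the blood-brain barrier, 4 were lowered and 1 raised, against 2.11% and 0.803% of all genes, with a median log2 fold change of -0.17. Slco1c1, which carries thyroid hormone across the barrier, was at 63.5, 70.4, 65.5 and 77.5 CPM with vehicle and at 47.1, 43.1, 43.7, 46.7 and 40.4 CPM with CORT (-0.65, SE 0.0663, adjusted p = 8.78e-06). Itm2a, a membrane protein gene, fell by 0.57 (adjusted p = 0.00267) and Tek, the angiopoietin receptor, by 0.51 (adjusted p = 0.0102). Tek lost its call with H9 and H13 included, in the 9 WT libraries alone and without H6 and H17 together. The raised gene was Mfsd2a, the lipid transporter that keeps the barrier closed, at 23.1, 30.5, 20.6 and 17.2 CPM with vehicle and at 39.8, 41.7, 34.6, 35.2 and 37.6 CPM with CORT (0.72, SE 0.127, adjusted p = 0.00267). Mfsd2a did not overlap between groups, though without H6 and H17 together it no longer passed (0.50, adjusted p = 0.0733). Summed endothelial markers were 991 to 1092 CPM with vehicle and 895 to 977 CPM with CORT.

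Of 10 genes of pericytes and smooth muscle, 3 were lowered, against 2.11% of all genes: Vtn (-0.44, adjusted p = 0.00167), an adhesive glycoprotein, Pdgfrb (-0.28, adjusted p = 0.024), the receptor that recruits pericytes, and Rgs5 (-0.35, adjusted p = 0.031), a regulator of G proteins. Vtn passed in each of the 9 fits without 1 mouse, Pdgfrb in 5 and Rgs5 in 3. Of 15 genes of meningeal fibroblasts, 2 were lowered, against the same 2.11%. Igfbp2, which binds insulin-like growth factors, was at 23.2, 33.6, 45.0 and 45.0 CPM with vehicle and at 19.3, 20.8, 17.9, 19.5 and 15.6 CPM with CORT (-0.98, SE 0.149, adjusted p = 0.000774). Its highest values were those of H6 and H17, without which it fell by 0.61 (adjusted p = 0.0381). The sulfate transporter gene Slc13a4 (-1.69, adjusted p = 0.0482) overlapped between groups and kept its call in 2 of the 9 fits.

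Choroid plexus genes had some of the largest decreases, which rested on H6 and H17. Of 12 tested, 5 were lowered, against 2.11% of all genes, with a median log2 fold change of -2.02. The count was 8 without H1, 7 without H4, 2 without H15 and 0 without any 1 of the other 6 mice, and it was 0 in the 9 WT libraries alone. Ttr, the thyroid hormone carrier of that epithelium, was at 43.4, 50.5, 1169 and 2686 CPM with vehicle and at 2.97, 15.4, 59.1, 58.1 and 71.7 CPM with CORT (-4.57, SE 1.22, adjusted p = 0.0484). Folr1, a folate receptor, was at 0.597, 1.04, 8.12 and 16.96 CPM with vehicle and at 0 to 1.20 CPM with CORT (-3.35, adjusted p = 0.0253), and Enpp2, which makes lysophosphatidic acid, at 184, 115, 519 and 1277 CPM against 76.9 to 199 CPM (-2.10, adjusted p = 0.0337). Their calls held in 2, 3 and 3 of the 9 fits without 1 mouse. In all 3 the vehicle mice H1 and H4 lay within the CORT range. Without H6 and H17, Ttr changed by -0.18 (adjusted p = 0.97), Folr1 by -0.33 and Enpp2 by -0.29, 0 of the 12 genes passed, and the median was 0.20. The mitochondrial gene mt-Co3 fell by 4.37 (adjusted p = 0.024) through H17 alone, at 162 CPM in that mouse and 1.48 to 3.36 CPM in the other 8. It did not pass without H17, nor without H3, H12 or H20.

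**Figure D4:**
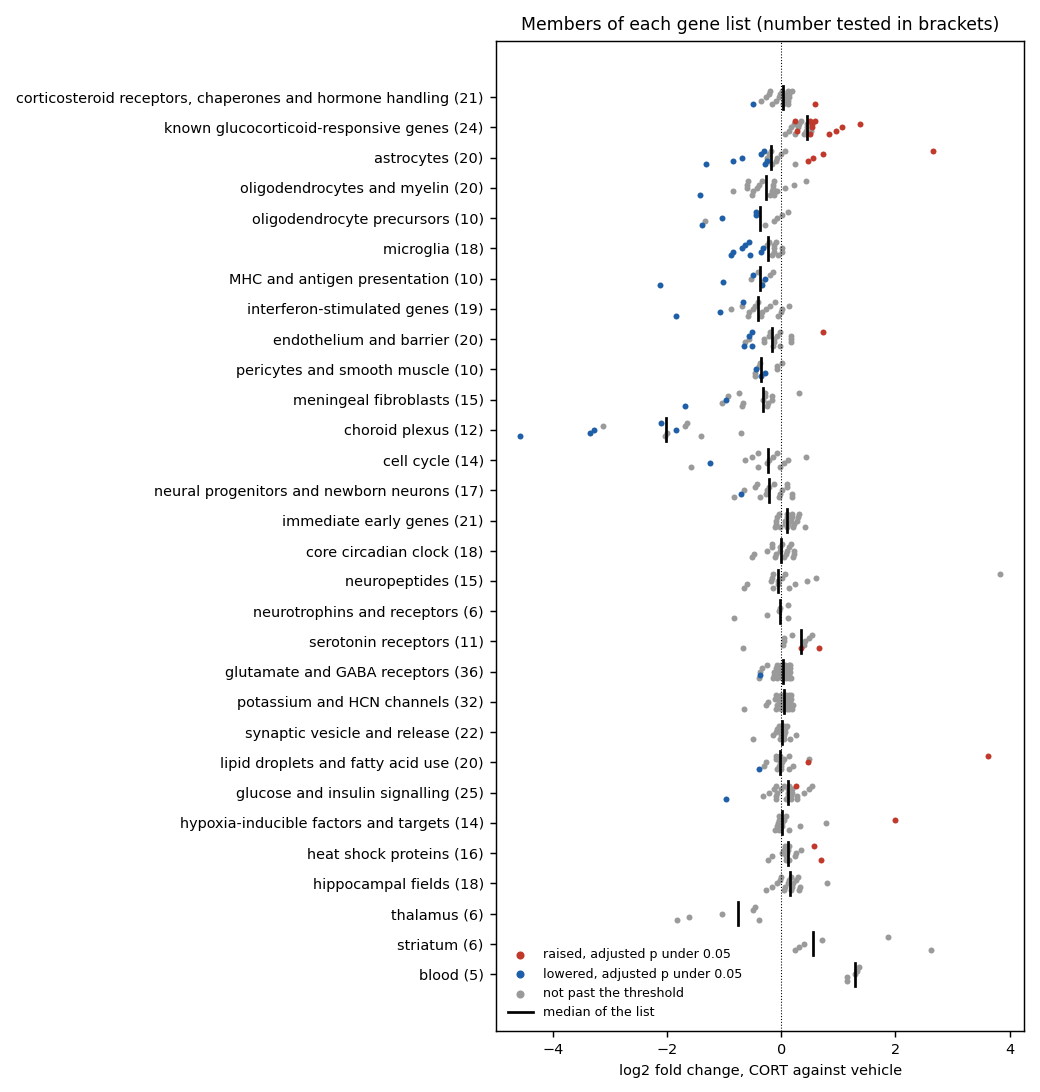
Log2 fold change of CORT against vehicle for the tested members of 30 gene lists, with 1 point per gene, red where raised, blue where lowered, grey where the threshold was not passed, and a black line at the median of each list. Glucocorticoid-responsive genes lie right of 0, astrocyte genes split to both sides, microglia and immune lists lie left, and the lists of synaptic vesicle, channel and clock genes cluster around 0 with no coloured points.

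The next lists are small, and a count of 0 in any 1 of them is near the share of all genes, so nothing is read from it. Among 21 immediate early genes, 18 clock genes, 15 neuropeptide genes, 6 genes of neurotrophins and their receptors, 32 channel genes, 22 synaptic vesicle genes and 18 markers of hippocampal fields, 0 passed, against 2.92% of all genes. These lists had 2, 1, 0, 2, 6, 0 and 1 members at an unadjusted p under 0.05 (edgeR), as did 2339 of all 14949 genes, and without 1 mouse at most 1 member of any of them passed. Of 36 glutamate and GABA receptor genes, 1 was lowered, near the 2.11% of all genes. It was Grm3, a metabotropic glutamate receptor also known in astrocytes, from 45.6 ± 1.76 to 35.2 ± 3.97 CPM (-0.37, adjusted p = 0.0415). Of 11 serotonin receptor genes, 2 were raised, against 0.803% of all genes, but 0 were raised without H6 and H17 together, in the 9 WT libraries alone or with H9 and H13 included. Htr1a was at 43.2, 33.2, 39.5 and 39.97 CPM with vehicle and at 45.1, 50.6, 46.9, 49.6 and 54.6 CPM with CORT (0.34, SE 0.0886, adjusted p = 0.0417). Htr2a was at 15.2, 7.70, 10.2 and 10.6 CPM with vehicle and at 17.2, 15.7, 17.1, 20.9 and 15.6 CPM with CORT (0.67, SE 0.171, adjusted p = 0.039). Neither overlapped, but both kept their call in 2 of the 9 fits without 1 mouse, and Grm3 in 1.

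Among all genes 2.11% were lowered. Of 14 cell cycle genes, 1 was lowered, Cenpf, a centromere protein of dividing cells, from 1.25 ± 0.0534 to 0.519 ± 0.124 CPM (-1.26, adjusted p = 0.0176), and 6 others, Mki67 among them, did not reach the filter. Of 17 genes of neural progenitors and newborn neurons, 1 was lowered, Nes, the intermediate filament of neural stem cells and of some vessel cells, at 10.3, 9.78, 10.9 and 10.8 CPM with vehicle and at 6.53, 6.10, 5.17, 7.68 and 6.67 CPM with CORT (-0.70, SE 0.142, adjusted p = 0.00901). Both genes passed in each of the 9 fits without 1 mouse and in neither case without H6 and H17 together, where Cenpf was at -1.21 (adjusted p = 0.133) and Nes at -0.64 (adjusted p = 0.112) with 2 vehicle mice left. From the list for glucose and insulin signalling, Irs2, an adaptor of the insulin receptor, rose by 0.25 (adjusted p = 0.02), and the 1 lowered gene of 25 was Igfbp2. Of 16 heat shock genes 2 were raised, against 0.803% of all genes, the near-identical pair Hspa1a (0.56, adjusted p = 0.0239) and Hspa1b (0.70, adjusted p = 0.0247), whose reads the counting could split arbitrarily. The 3 calls held in 5, 5 and 4 of the 9 fits. Of the 5 blood genes, 0 passed although the median was 1.29, 3 were raised in a fit of the 9 WT libraries alone (Hba-a1, Hbb-bs and Hbb-bt, whose reads may be shared with near-identical copies) and 1 with no count filter, Hbb-bs, and the 6 genes each of thalamus (median -0.76) and striatum (0.56) did not pass either. Without H15 the striatum median was 0.0080, and without H4 the thalamus median was -0.44.

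The continuous CORT effect of AS mice was set against that of WT mice with an interaction term. At an adjusted p under 0.05, 0 of 14949 genes (0%) differed with edgeR, 561 had an unadjusted p under 0.05, and DESeq2 also gave 0 with 495 at an unadjusted p under 0.05. The WT and AS log2 fold changes, from separate vehicle mice, were 3.62 and 5.12 for Plin4, 1.71 and 2.29 for Sult1a1, 0.96 and 1.11 for Fam107a, and 0.58 and 1.05 for Fkbp5. For the lowered genes they were -0.85 and -0.85 for Aqp4, -1.04 and -0.87 for Gpr17, -1.31 and -1.97 for Fabp7, and -0.50 and -0.55 for Hsd11b1. For Ttr they were -4.57 in WT and -0.26 in AS mice.

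The effect of 5 days of CORT was also compared with that of 1 injection, in a joint fit of the 21 WT libraries of both cohorts. The effect differed for 43 of 15084 genes (0.285%). Both cohorts received CORT subcutaneously, but they differed in the form of delivery (pellet or injection), dose, vehicle and time, which cannot be told apart. Continuous CORT had altered 35 of the 43, 6 raised and 29 lowered, against 2.92% of all genes, but the difference holds the continuous values themselves, so nothing is read from this overlap. Etnppl had a log2 fold change of 2.66 after 5 days and 0.65 after 3 h, a difference of 2.02 (adjusted p = 0.000313), and Fam107a had 0.96 and 0.27, a difference of 0.69 (adjusted p = 0.00011). Cyp4f15 (1.07 and 0.17), Aldoc (0.55 and 0.12) and Acot11 (0.66 and 0.27) were of the same kind.

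Named genes among the 29 lowered are given next, and no cell type is read from them. The astrocyte markers Etnppl and Aldoc were among the 6 raised. Gpr17 had a log2 fold change of -1.04 after 5 days and 0.083 after 3 h (adjusted p of the difference = 3.01e-05), Chil1 -0.99 and 0.073 (adjusted p = 0.000162), Aqp4 -0.85 and -0.22 (adjusted p = 0.00572) and Fabp7 -1.31 and -0.045 (adjusted p = 0.00332). Gfap (-0.69 and 0.0025), Trem2 (-0.68 and 0.053) and Fcrls (-0.84 and -0.12) also differed, with adjusted p of 0.0353, 0.0449 and 0.0449. With each cohort scaled on its own, Fabp7 averaged 26.8 CPM with vehicle and 10.8 CPM with CORT in the continuous cohort. In the acute cohort it averaged 11.8 and 11.5 CPM, so the CORT means were close and the vehicle means were not. Vehicle means lay closer for Chil1 (15.1 and 12.4 CPM), Gpr17 (63.4 and 77.9 CPM) and Aqp4 (139 and 115 CPM). The log2 fold changes of Fkbp5 (0.58 and 0.82), Sgk1 (1.07 and 0.63), Tsc22d3 (0.53 and 0.79) and Klf15 (0.51 and 0.49) did not differ past the threshold, nor did those of Nr3c1 (-0.36 and -0.48). Of the 43 genes, 8 were not altered by continuous CORT, among them Slc2a1, the glucose transporter of the barrier, named after its values were seen. It stood at 90.3 ± 16.4 and 102 ± 7.19 CPM after 5 days (0.17) and had risen by 0.94 after 3 h, a difference of -0.76 (adjusted p = 0.00271). Without H4, H12 or H20, 27, 27 and 26 genes differed, and with DESeq2 108 did.

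**Figure D5:**
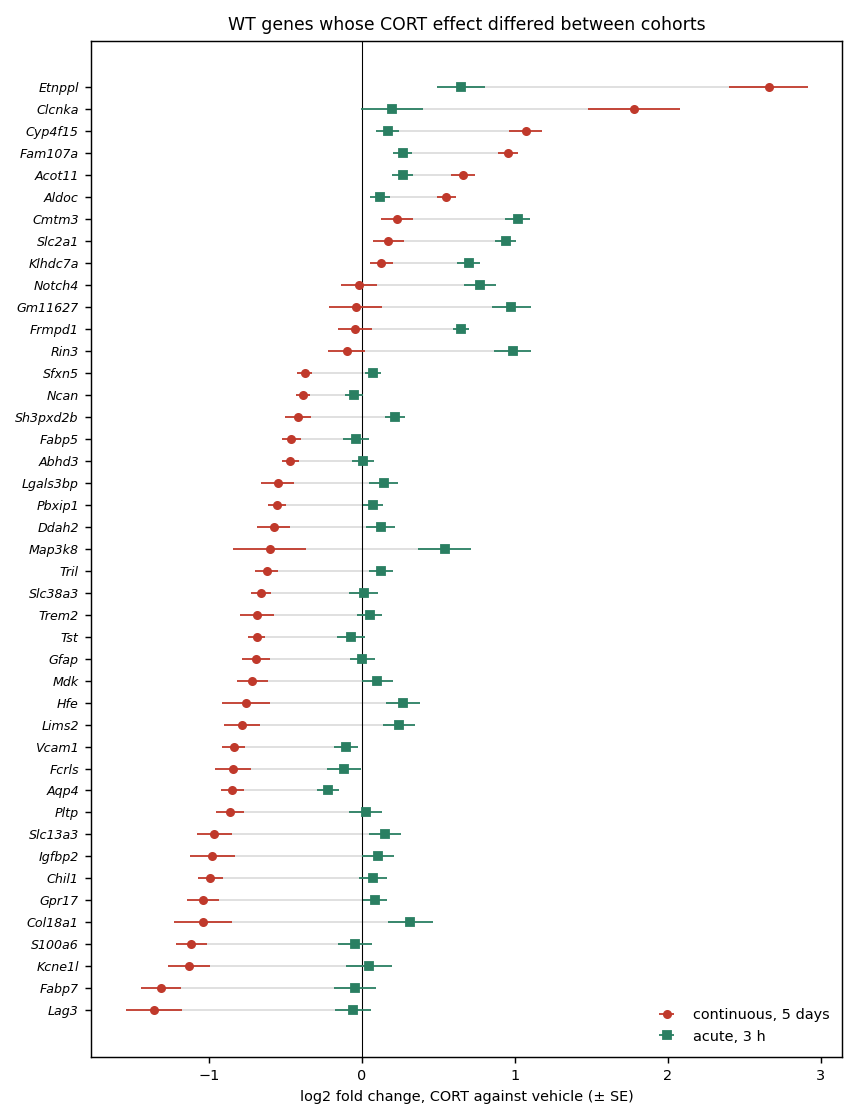
Log2 fold change of CORT against vehicle, with its standard error, after 5 days (red circles) and 3 h after an injection (green squares) for the 43 WT genes whose effect differed between the cohorts. Etnppl, at 2.66 and 0.65, lies at the top, and the lower rows hold genes below 0 after 5 days. Many of their acute values lie near 0, though not those of Map3k8 (-0.60 and 0.54) and Col18a1 (-1.04 and 0.32).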

How the data were processed

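RNA was measured by bulk sequencing of 1 library per mouse. The authors aligned reads to mm10 with STAR and counted them per gene with HTSeq (tools per the labels), and deposited raw counts, not normalized or pooled. The annotation release and the strand setting are not given in the sources used here, so overlapping and antisense genes are uncertain. Reads on no gene, 11.8% to 12.6% of each library, were left out, and 0 columns belonged to no sample. Symbols and positions came from GENCODE M21 on GRCm38 (55480 of 55573 IDs).

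Genes with more than 20 median-of-ratios counts in at least 3 libraries of a group were tested with edgeR 4.0.16 (R 4.3.3; quasi-likelihood, TMM) in 1 fit of 4 groups (WT or AS mice, vehicle or CORT), without H9 and H13, which the study left out. The continuous minus acute effect came from a joint fit of the WT mice. P-values were adjusted by Benjamini-Hochberg over all genes tested, at 0.05. Standard errors are the log2 fold change divided by the square root of F. Summed marker levels of H13 were scaled with all 20 libraries. No replicates were near-identical: within a group, the squared difference of a pair of libraries was 2.65 to 5.95 times that expected from sampling noise (median over genes). The code was tested on simulated data.

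Alternatives were DESeq2 1.42.0, its size factors in edgeR, upper-quartile normalization, no count filter, all 20 mice, limma 3.58.1 voom with quality weights, adjusted p under 0.01, a choroid plexus covariate, each mouse left out, only the 9 WT libraries, and, chosen after seeing the data, H6 and H17 left out. Gene lists were chosen with earlier results of these data known. Named genes are the 15 raised and 15 lowered genes with the smallest p, the 5 in each direction with the largest change at a mean of at least 1 CPM, the receptor and glucocorticoid-responsive lists, and up to 4 genes of each other list with the smallest p. Values are printed for part of them, and list counts for the rest. Gfap, Serpina3n, Map3k6, Folh1 and Slc2a1 were added after their values were seen. The study also holds liver and other libraries, not analysed here. The alternatives for 1 named gene are not reported here.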

Additional observations from a re-analysis of the deposited data

Results flagged for a closer look

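Of 180 group values checked with Dixon's test at 4 or 5 mice, 11 had a mouse apart from its group, and chance alone picks about 1 in 20. These were, in CPM, the vehicle mice H6 for Ddit4 (56.4), H4 for Aqp4 (158) and Tek (17.2) and H17 for mt-Co3 (162), and the CORT mice H3 for Mt1 (424) and Cpt1a (27.99), H5 for Rtp1 (13.3) and Lhfpl3 (13.6), H12 for Pbxip1 (46.2), H20 for Psmb9 (0.463) and H15 for Ifitm3 (5.50).

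The continuous minus acute difference in the CORT effect passed the interaction test for named genes (log2). It was above 0 for Etnppl (2.02), Cyp4f15 (0.91), Fam107a (0.69), Aldoc (0.44) and Acot11 (0.40). It was below 0 for Fabp7 (-1.26), Gpr17 (-1.11), Slc13a3 (-1.11), Igfbp2 (-1.07), S100a6 (-1.06), Chil1 (-1.05), Pltp (-0.87), Slc2a1 (-0.76), Trem2 (-0.73), Vcam1 (-0.72), Fcrls (-0.71), Gfap (-0.68), Slc38a3 (-0.66), Aqp4 (-0.62), Pbxip1 (-0.62), Tst (-0.60) and Abhd3 (-0.47).

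The vehicle library H13, outside the comparison, summed to 18340 CPM of choroid plexus and 3331 CPM of striatum markers, above the other vehicle libraries.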

How the results depend on the processing

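The 436 altered genes (120 raised, 316 lowered) became 203 (34 and 169) with all 20 mice, 274 (191 lowered) in the 9 WT libraries alone, 178 (44 and 134) at an adjusted p under 0.01, and 182 (43 and 139) without H6 and H17, chosen after seeing the data. DESeq2 raised 196 and limma-voom 206. Leaving out 1 mouse gave 252 to 444 altered, 67 to 141 raised and 180 to 340 lowered genes. The 43 genes of the continuous minus acute difference became 108 with DESeq2, 22 at an adjusted p under 0.01, 26 to 47 without 1 mouse of the continuous cohort, and 58 without the acute library H8. The AS minus WT difference stayed at 0 genes in every alternative run. Fold changes (log2) turned sign with all 20 mice for Nr3c2 (0.029), Adora2a (-3.61), Npas2 (-0.16), Penk (-2.36), Drd2 (-2.97), Rgs9 (-2.63), Cck (0.11), Syn2 (0.079) and Ntf3 (0.066), and without H6 and H17 for 1500015O10Rik (0.25), Per1 (-0.0057) and Ptges3 (0.023). Without 1 mouse Pomc ranged from -0.16 to 4.15, Drd2 from -0.16 to 0.89 and Angptl4 from -0.19 to 0.20. Of these only 1500015O10Rik had passed. The causes were not tested. Low counts limit genes near 1 CPM. No paired analysis was possible because the replicate numbers only follow the order of the samples and the labels tie no mice to each other.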
